A study of Mus musculus with 121 samples.

Results

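Lysosome, V-ATPase and autophagy genes were followed through the removal of the transcription factor YY1 from mouse erythroid cells. Members were taken by symbol: the subunits of the vacuolar proton pump (Atp6v genes), the cathepsins, Lamp1 and Lamp2, the numbered Atg genes, Wipi1 and Wipi2, Ulk1 to Ulk4, the Gabarap and Map1lc3 families, and Sqstm1. The RNA-seq time series listed 77 such symbols among 55351, the RNA-seq table of untreated lines 71 among 22493, and TT-seq listed 74 among 25208. After a filter on low counts 55, 52 and 52 of them were tested in these tables.

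All libraries came from G1E-ER4, a line of erythroid progenitors derived from mouse embryonic stem cells that lacks functional GATA1 and carries a hormone-activated GATA1. In the time series and in TT-seq all cells were the YY1-AID subline, whose YY1 carries an auxin-inducible degron, so that auxin triggers degradation of YY1, and the cultures were asynchronous. RNA-seq of the YY1-AID subline was done at 0, 4, 24 and 48 h of auxin, with 3 libraries each, and every change below is set against the 0 h libraries, so time in culture and loss of YY1 cannot be told apart. TT-seq, which sequences RNA made during a short pulse of 4-thiouridine and so reads new transcription, was done after 4 h of auxin and in untreated cells, with 3 libraries each. A separate RNA-seq table held untreated YY1-AID subline 3, the untreated YY1-AID subline and untreated parental cells, with 2 libraries each. The auxin experiments rest on 1 subline, and the labels do not say whether replicates were separate cultures, so p-values measure only the spread between these libraries.

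Lysosomes digest what endocytosis and autophagy deliver to them. The V-ATPase acidifies their lumen: its cytosolic V1 sector hydrolyses ATP and its membrane V0 sector moves protons. Cathepsins are the proteases that work in that acid lumen, and LAMP1 and LAMP2 are the main glycoproteins of the lysosomal membrane. In autophagy the ULK kinase complex starts a phagophore, ATG14, ATG2, ATG9 and WIPI proteins make it grow, and a ubiquitin-like enzyme cascade (ATG7, ATG3, ATG10, ATG5, ATG12, ATG16L1, with the ATG4 proteases) attaches ATG8 proteins of the LC3 and GABARAP families to its membrane, where SQSTM1 (p62) docks cargo. Maturing red cells are known for clearing their mitochondria by autophagy.

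Promoters were read from RefSeq windows of build GRCm38.p6, each running from 250 bases before to 50 bases after a gene's start. Of the 55 members tested in the time series, 44 had a window, with 49 windows in all. They were searched on both strands for CACGTG (the E-box core of the element known for lysosomal genes and bound by TFEB), its longer form TCACGTGA, which contains it, and ATGGCGG and AAGATGGC, cores of the YY1 motif. CACGTG stood in 24.5% of the members' windows against 7.15% of all 32851 windows. TCACGTGA stood in 12.2% against 0.974%, ATGGCGG in 10.2% against 4.05% and AAGATGGC in 8.16% against 2.75%. The members' windows belong to genes that passed the count filter here, while all windows were taken whether or not their genes were expressed. The shares thus compare unlike sets, and whether expressed genes in general hold these motifs more often was not tested. A match of letters is a description and not a site. Atg14 and Atg4d are shown because their mRNAs were among the first to fall and their windows hold one of these motifs, in capitals. The windows of Atg2b, Ulk4 and Ctsc, which also passed at 4 h, held none of the 4 motifs. Atp6v1b2, the remaining member past the threshold in RNA-seq at 4 h, had no window and was not searched. The Atg14 window is chr14:47568385-47568684 on the minus strand (with CACGTG), and the Atg4d window is chr9:21265035-21265334 on the plus strand (with AAGATGGC).
Atg14: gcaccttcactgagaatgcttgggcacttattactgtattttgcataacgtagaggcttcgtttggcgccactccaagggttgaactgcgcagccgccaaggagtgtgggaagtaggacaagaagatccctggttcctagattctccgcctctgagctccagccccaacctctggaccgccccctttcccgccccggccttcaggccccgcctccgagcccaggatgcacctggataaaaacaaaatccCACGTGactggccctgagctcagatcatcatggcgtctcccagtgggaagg
Atg4d: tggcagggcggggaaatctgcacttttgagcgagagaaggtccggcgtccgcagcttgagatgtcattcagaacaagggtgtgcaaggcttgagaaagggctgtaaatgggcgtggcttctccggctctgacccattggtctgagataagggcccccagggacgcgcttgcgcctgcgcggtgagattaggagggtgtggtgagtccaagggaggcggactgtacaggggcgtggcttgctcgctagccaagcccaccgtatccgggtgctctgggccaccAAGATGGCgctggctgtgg

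Among the 44 members with a window, 6 held TCACGTGA, and 40 bases around it are shown, with the motif in capitals. Of these 6 genes 4 were higher at 48 h of auxin (Atg3, Atp6v0d1, Ctsa and Ctsd), 1 was lower (Atp6v0e) and 1 was not past the threshold (Atp6v1a). None of the 6 passed at 24 h. Among the 38 members with a window and no TCACGTGA, 14 were higher and 5 lower at 48 h, and 14 were higher and 10 lower at 24 h. For the shorter CACGTG, 5 of 12 members with it were higher and 2 lower at 48 h. Of the 32 without it 13 were higher and 4 lower. Of 5 members with ATGGCGG 3 were higher and 1 lower at 48 h, and of 3 with AAGATGGC 1 was higher and 2 lower. A link between motifs and calls was not tested. The stretches are chr16:45158741-45158780 (plus strand) for Atg3, chr8:105566045-105566084 (minus) for Atp6v0d1, chr2:164833744-164833783 (plus) for Ctsa, chr7:142387903-142387942 (minus) for Ctsd, chr17:26676382-26676421 (plus) for Atp6v0e and chr16:44139368-44139407 (minus) for Atp6v1a.
Atg3: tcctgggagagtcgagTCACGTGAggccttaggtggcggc
Atp6v0d1: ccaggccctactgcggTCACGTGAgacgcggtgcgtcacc
Ctsa: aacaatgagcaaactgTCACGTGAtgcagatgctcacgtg
Ctsd: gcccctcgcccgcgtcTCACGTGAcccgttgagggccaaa
Atp6v0e: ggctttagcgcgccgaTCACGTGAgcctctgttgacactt
Atp6v1a: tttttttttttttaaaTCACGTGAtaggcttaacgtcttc

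Libraries held 25093000 to 26210181 counts in the time series, 35171508 to 44919735 in the untreated lines and 30229935 to 53453617 in TT-seq. Levels are in CPM, counts scaled to a common library size with TMM, which serves to compare libraries for 1 gene. No gene lengths were used, so genes are not ranked by level. Yy1 mRNA, which codes for the protein that auxin removes, did not pass the threshold at any time (log2 fold change 0.11 ± 0.09 SE at 4 h, −0.09 ± 0.09 at 24 h and 0.05 ± 0.09 at 48 h). The degron acts on protein, so this does not check the labels. Erythroid markers summed to 3890 to 4320 CPM at 0 h, 3570 to 3910 at 4 h, 3390 to 3420 at 24 h and 4180 to 5090 at 48 h, with 9 of the 10 listed markers found in the table, all with counts. Gata1 was the largest part, at 2090 to 3470 CPM over the libraries. The line carries a hormone-activated GATA1, and Gata1 counts from it were not told apart from those of the cells' own gene. The sum thus rests mostly on a gene whose level need not follow the erythroid state. Markers at a low level added little to the sum, though their range was wide: Slc4a1 2.08 to 27, Alas2 4.53 to 45.5 and Epb42 2.04 to 17.6 CPM. A similar sum is thus no measure of a similar erythroid state. Megakaryocyte markers summed to 37.8 to 52.1 CPM at 0 h, 40.4 to 50.5 at 4 h, 102 to 142 at 24 h and 210 to 249 at 48 h, mostly Itga2b, with Gp9 and Pf4 present and Gp1bb at 0. Mast cell markers, nearly all Cpa3, summed to 36.1 to 59.5 CPM at 0 h, 39.4 to 58.9 at 4 h, 58.8 to 85.7 at 24 h and 62.9 to 75.9 at 48 h. Macrophage markers stayed between 2.48 and 4.76 CPM in every time-series library with Cd14 at 0, neutrophil markers at or under 0.439 CPM and lymphoid markers at or under 0.0821 CPM. The megakaryocyte and mast cell sums were higher at 24 and 48 h, the erythroid sum was lowest at 24 h, and their part in those results was not tested. In a culture, fewer cells of a kind and less RNA per cell cannot be told apart.

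Within RNA-seq more members passed the threshold at 24 and 48 h than at 4 h, as did more of all genes. In TT-seq after 4 h of auxin, without a replicate block, 1 of 52 members was higher and 5 were lower at an adjusted p under 0.05. This is 11.5% of members against 9.2% of all 11218 genes tested (2.11% higher and 7.09% lower). With the replicate number as a block 55.8% of members and 47.9% of all genes passed in TT-seq, so the TT-seq share at 4 h depends on the block. In RNA-seq at 4 h 1 of 55 was higher and 5 were lower, 10.9% against 7.28% of all 15157 genes (3.14% higher and 4.14% lower). The higher member was Ctsc, which passed the count filter only through late libraries in which it was high. Ctsc is also among the higher members at 24 and 48 h, and it adds nothing to any of these counts. At 24 h 18 were higher and 13 lower, 56.4% against 43%, and at 48 h 22 were higher and 9 lower, 56.4% against 49.5%. At 48 h 40% of the members were higher against 24.9% of all genes, and 16.4% were lower against 24.6%. The members' median log2 fold change was 0.01 at 4 h, 0.07 at 24 h and 0.21 at 48 h, and that of all genes 0.01, 0.03 and 0.03. In absolute value the members' median was 0.1215, 0.2944 and 0.3375 at these times, against 0.1683, 0.3417 and 0.397 for all genes. A larger share of members thus passed, though their median size of change was smaller. The members' counts made up 0.362% to 0.365% of a library at 0 h, 0.362% to 0.37% at 4 h, 0.389% to 0.405% at 24 h and 0.429% to 0.443% at 48 h. These are shares of raw library totals and not of the TMM sizes used for CPM. The TMM factors were 0.936 to 0.942 at 0 h and 1.03 to 1.07 at 48 h. A larger factor lowers a level, so on TMM sizes the rise from 0 to 48 h is smaller.

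**Figure D1:**
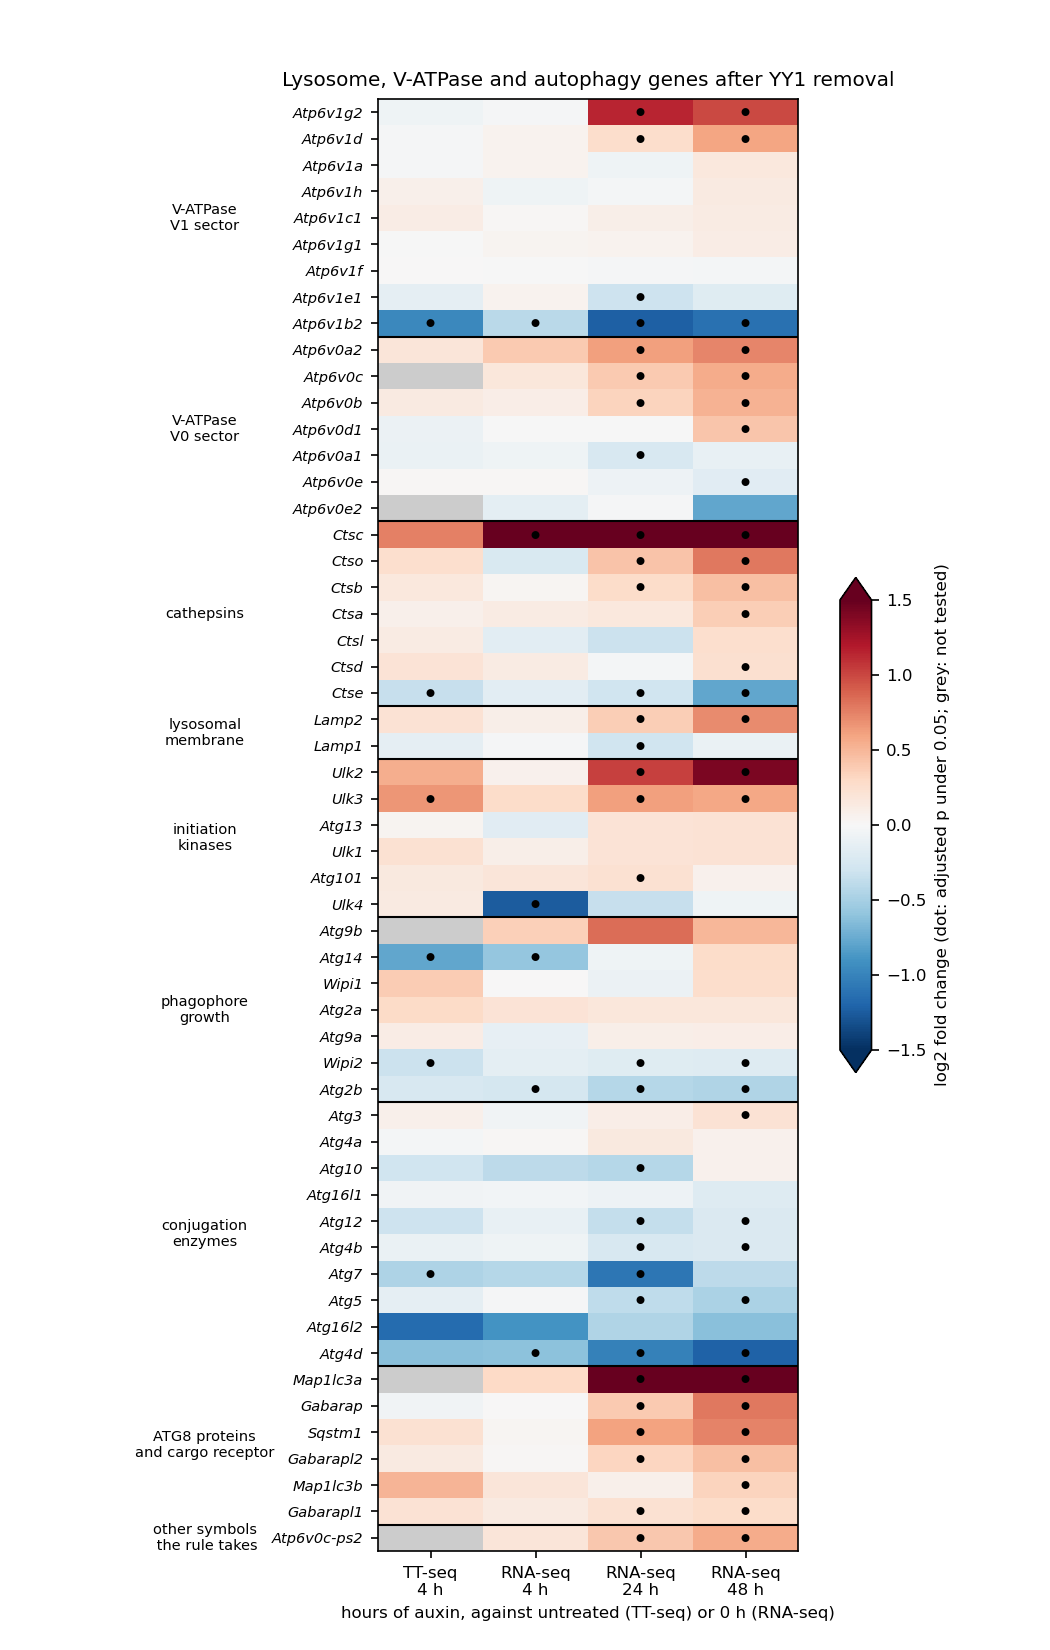
Log2 fold change of the 55 members tested in the time series (rows, by role) in TT-seq at 4 h of auxin against untreated cells and in RNA-seq at 4, 24 and 48 h against 0 h (columns); red is higher, blue is lower, colours end at ±1.5, a dot marks an adjusted p under 0.05 and grey was not tested. All 6 ATG8 and receptor genes are red with a dot at 48 h, and Atp6v1b2 is blue with a dot in every column.

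Without a replicate block and with TMM sizes, 6 members passed the threshold in TT-seq after 4 h of auxin. The number differed with the block and with spike-in sizes, as given below. Atp6v1b2, which codes for the B subunit of the ATP-hydrolysing ring, had 39.7, 30.7 and 29.6 TT-seq CPM in auxin-treated libraries, against 69.6, 65.6 and 59.9 CPM in untreated libraries. Every treated library lay below every untreated one, and the log2 fold change was −0.97 ± 0.13 (adjusted p = 0.00283). Atg14, the subunit that directs the lipid kinase VPS34 to autophagy, had 8.40, 11.6 and 8.69 CPM in auxin-treated libraries, against 15.7, 17.7 and 16.3 CPM in untreated ones. The groups did not overlap (−0.78 ± 0.14, adjusted p = 0.0127), though the adjusted p was 0.0532 without untreated replicate 3 and 0.0714 without auxin replicate 3.

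Ulk3, a relative of the ULK1 kinase, was the only member past the threshold on the higher side in TT-seq without a replicate block, with 7.57, 6.56 and 6.89 CPM in auxin-treated libraries, against 4.38, 4.46 and 4.35 CPM in untreated ones (0.67 ± 0.12, adjusted p = 0.014). Atg7, the E1-like enzyme that activates both ubiquitin-like proteins of the cascade, had 45.6, 57.8 and 47.1 CPM in auxin-treated libraries, against 65.0, 75.5 and 67.8 CPM in untreated ones (−0.47 ± 0.11, adjusted p = 0.0363). Ctse, an aspartic protease, had 104, 105.2 and 109.5 CPM in auxin-treated libraries, against 130.5, 138 and 137.7 CPM in untreated ones (−0.35 ± 0.07, adjusted p = 0.0228). Wipi2, which binds the phagophore and brings ATG16L1 to it, had 36.7, 41.8 and 38.6 CPM in auxin-treated libraries, against 48.3, 51.2 and 47.6 CPM in untreated ones (−0.33 ± 0.08, adjusted p = 0.0459). In all of these genes the treated and untreated libraries did not overlap, and Atp6v1b2 had the largest fall, to 0.511 of its untreated level. The Atg7, Ctse and Wipi2 calls were lost when any single library other than auxin replicate 2 was left out, and the Ulk3 call without auxin replicate 3 (adjusted p = 0.0579) or untreated replicate 3 (adjusted p = 0.0825). With no filter on low counts the Ctse (adjusted p = 0.0569) and Wipi2 (adjusted p = 0.105) calls were also lost. Over all 52 members, 10 members had every treated library above and 7 every treated library below the untreated ones, against 13.9% and 15.4% of all genes.

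**Figure D2:**
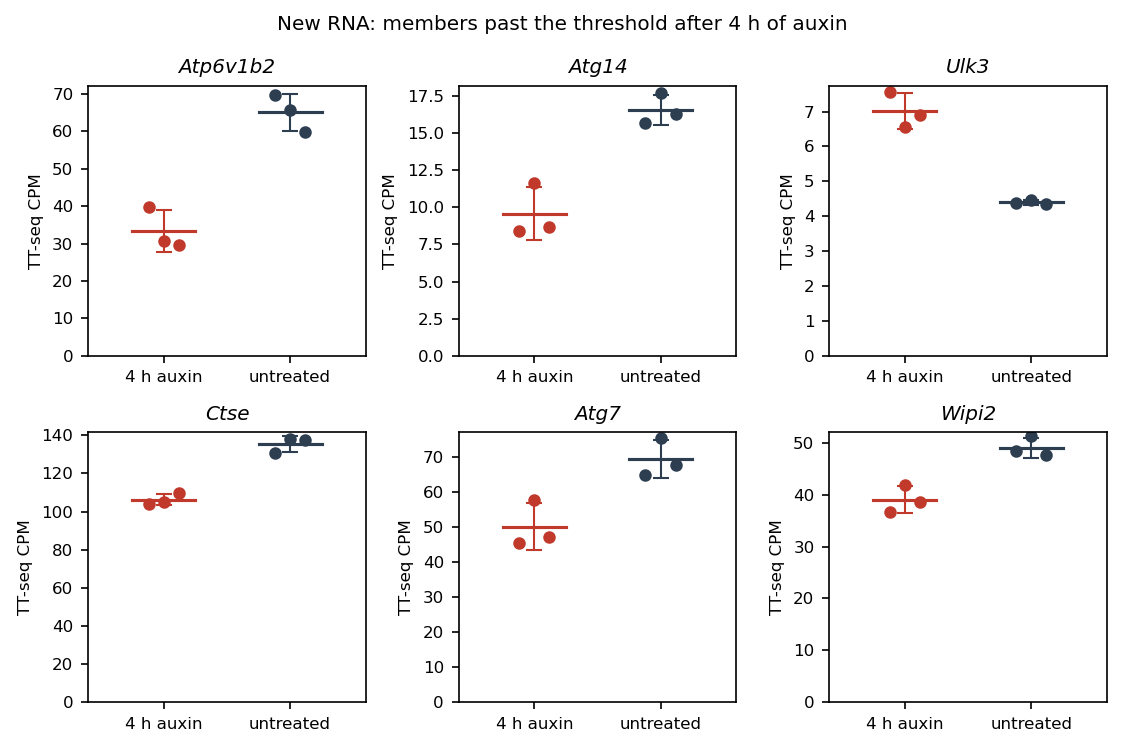
TT-seq CPM of the 6 members past the threshold, in auxin-treated (red, left) and untreated (dark, right) libraries; points are the 3 libraries of a group, horizontal lines the mean and bars the SD, on axes from 0. Treated libraries of Ulk3 lie above the untreated ones and those of the other genes below.

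Same-numbered TT-seq libraries deviated together, and with the replicate number as a block 14 members were higher and 15 lower, 55.8% against 47.9% of all genes tested. The 6 members above were among them. Besides these, the 4 members with the smallest p in each direction in that fit were Ulk2 (0.54), Map1lc3b (0.51), Lamp2 (0.21) and Sqstm1 (0.23) on the higher side, and Atg10 (−0.30), Atg4d (−0.66), Atg2b (−0.25) and Atg12 (−0.31) on the lower side, as log2 fold changes. None of these 8 passed without the block, where their adjusted p lay between 0.0627 (Ulk2) and 0.665 (Sqstm1). The blocked calls and the RNA-seq time series come from different libraries. Of the 14 members higher in blocked TT-seq 9 were higher in RNA-seq at 24 h (64.3% of the 14 and 60% of the 15 RNA-seq calls that TT-seq also tested, against 46% and 49.6% over all genes). At 48 h 11 of the 14 were higher (78.6% of the 14 and 57.9% of the 19 RNA-seq calls, against 48.2% and 44.2%). The matches at both times include Ctsc, which passed the RNA-seq count filter only through late libraries in which it was high. Ctsc had to differ there and adds nothing to these shares. Of the 15 lower in blocked TT-seq 13 were lower in RNA-seq at 24 h (86.7% of the 15 and 100% of the 13 RNA-seq calls, against 64.6% and 60% over all genes). At 48 h 8 of the 15 were lower (53.3% of the 15 and 88.9% of the 9 RNA-seq calls, against 60.9% and 50.7%). The 53.3% lay below the share over all genes. With Drosophila spike-in sizes in place of TMM, and no block, no member passed by edgeR, 0 members were at an unadjusted p under 0.05 and 1 gene of 11218 passed, and with spike-in sizes and the block 5 members were higher and 11 lower. The ratio of mouse to Drosophila counts was 43.1, 99.3 and 63.8 in auxin-treated libraries, against 43.1, 115 and 69.4 in untreated ones, so replicate numbers differed more than the groups (log2 difference −0.11, exact permutation p = 0.7, two-sided, smallest possible 0.1).

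In RNA-seq at 4 h of auxin the 5 members that fell were Atg4d, Atp6v1b2, Atg14, Atg2b and Ulk4, and Ctsc rose. Atp6v1b2 and Atg14 were lower in both assays. Same-numbered 0 h and 4 h libraries deviated together. With the replicate block 2 members were higher, Ctsc and Atp6v0a2, and 5 lower. Over all genes 661 were then higher and 832 lower. Atp6v1b2 mRNA was at 161.5, 198.9 and 192 CPM at 0 h, 129.9, 150.9 and 135.2 CPM at 4 h, 74.4, 77.1 and 85.3 CPM at 24 h and 88.1, 85.8 and 80.7 CPM at 48 h. The log2 fold change was −0.41 ± 0.08 at 4 h (adjusted p = 0.0111), −1.22 ± 0.09 at 24 h (adjusted p = 2.88e-07) and −1.12 ± 0.09 at 48 h (adjusted p = 3.3e-07). No later library reached the lowest 0 h library, and the level did not move further between 24 and 48 h (0.10 ± 0.09, adjusted p = 0.552).

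Atg14 took another course. Its mRNA was at 12.3, 15.2 and 11.1 CPM at 0 h, 8.37, 9.58 and 7.82 CPM at 4 h, 12.8, 12 and 12 CPM at 24 h and 15.9, 14.3 and 16.4 CPM at 48 h. It was lower at 4 h (−0.58 ± 0.13, adjusted p = 0.014), with an adjusted p of 0.0575 without 0 h replicate 2 and 0.0581 without 4 h replicate 3. It then rose by 0.51 ± 0.13 between 4 and 24 h (adjusted p = 0.00662) and was not past the threshold at 24 h (−0.07 ± 0.12) or 48 h (0.27 ± 0.12).

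Atg4d, a protease that trims and releases ATG8 proteins, was at 30.8, 34.6 and 36.6 CPM at 0 h, 19.5, 24 and 23.2 CPM at 4 h, 15.6, 18.6 and 16.5 CPM at 24 h and 13.3, 15.3 and 15.4 CPM at 48 h. It fell at each time against 0 h, by 0.61 ± 0.11, 1.01 ± 0.11 and 1.21 ± 0.11 on the log2 scale (adjusted p = 0.00432, 8.58e-06 and 1.17e-06), and the 0 h libraries lay above all others. Atg2b, a lipid-transfer protein of the growing phagophore, was at 229.8, 250.6 and 225.2 CPM at 0 h, 198.5, 187.5 and 201.7 CPM at 4 h, 169, 179 and 176.1 CPM at 24 h and 167, 180.1 and 168.4 CPM at 48 h. It was lower by a smaller step at all 3 times (−0.26 ± 0.06, −0.43 ± 0.06 and −0.45 ± 0.06; adjusted p = 0.0146, 6.01e-05 and 2.46e-05). Ulk4, a kinase relative with few counts here, was at 0.521, 0.798 and 0.439 CPM at 4 h, against 1.39, 1.15 and 1.67 CPM at 0 h (−1.25 ± 0.30, adjusted p = 0.0252). It was not past the threshold at 24 h (−0.35 ± 0.29) or 48 h (−0.07 ± 0.28), its TT-seq value at 4 h was 0.13 ± 0.13 (adjusted p = 0.598), and the 4 h call was lost without replicate 1 or 3 of either the 0 h or the 4 h group.

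In the V1 sector Atp6v1b2 stood apart from its partners. Of 9 V1 genes tested 2 were higher and 2 lower at 24 h, and 2 higher and 1 lower at 48 h. Atp6v1a, the catalytic partner of the B subunit in the same ring, was not past the threshold at any time (−0.07 ± 0.08 at 24 h and 0.16 ± 0.08 at 48 h), with 144.1 to 175.2 CPM at 48 h, against 137.7 to 149.1 CPM at 0 h. Atp6v1c1, Atp6v1f, Atp6v1g1 and Atp6v1h lay between −0.03 and 0.13 at 48 h, with none past the threshold. The other B subunit gene, Atp6v1b1, had no count in any library of the 3 tables, so Atp6v1b2 was the one B subunit gene with counts. Atp6v1e1, of the peripheral stalk, was lower at 24 h (−0.31 ± 0.08, adjusted p = 0.00792) and was at −0.18 ± 0.08 at 48 h (adjusted p = 0.0862). Atp6v1d, of the central stalk, was at 87.4, 102.1 and 101.5 CPM at 48 h, against 63.3, 65.8 and 63.3 CPM at 0 h (0.60 ± 0.08, adjusted p = 4.65e-05). Atp6v1g2, a stalk isoform best known from neurons, was at 2.45, 3.61 and 2.61 CPM at 0 h, 2.48, 3.15 and 2.95 CPM at 4 h, 6.25, 6.28 and 6.64 CPM at 24 h and 6.77, 4.51 and 5.97 CPM at 48 h. Its libraries at 24 and 48 h all lay above those at 0 and 4 h (1.14 ± 0.19, adjusted p = 0.000368, and 0.99 ± 0.19, adjusted p = 0.000784). The related Atp6v1g1 was at 93.8 to 101.9 CPM at 48 h, against 89 to 91.7 CPM at 0 h (0.11 ± 0.05, adjusted p = 0.101).

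Of 7 V0 genes tested 3 were higher and 1 lower at 24 h, and 4 higher and 1 lower at 48 h. Atp6v0b, a proteolipid of the proton-carrying ring, was at 60.2, 60.9 and 59.4 CPM at 0 h, 65.4, 63.8 and 65 CPM at 4 h, 70.4, 77.3 and 79.2 CPM at 24 h and 84.5, 85.5 and 89.2 CPM at 48 h. The libraries of later times lay above those of earlier times without overlap, and the log2 fold change was 0.33 ± 0.06 at 24 h (adjusted p = 0.000531) and 0.52 ± 0.06 at 48 h (adjusted p = 8.09e-06). Atp6v0a2, an isoform of the a subunit, was higher at 24 h (0.62 ± 0.14, adjusted p = 0.00304) and 48 h (0.73 ± 0.14, adjusted p = 0.000735). The other isoform tested, Atp6v0a1, was lower at 24 h (−0.24 ± 0.07, adjusted p = 0.0168; lost without 24 h replicate 2 or 3) and at −0.11 ± 0.07 at 48 h. Atp6v0d1, which joins V0 to the central stalk, was at 52.7, 52.5 and 52.2 CPM at 0 h, 50.4, 55.8 and 51.2 CPM at 24 h and 68.4, 73.8 and 67.6 CPM at 48 h. It was past the threshold against 0 h at 48 h only (0.41 ± 0.07, adjusted p = 0.000424) and rose between 24 and 48 h (adjusted p = 0.00719). Atp6v0e was lower at 48 h by a small step (−0.17 ± 0.06, adjusted p = 0.0393), a call lost when any of 4 single libraries was left out. Atp6v0e2 had the largest absolute log2 value of the sector at 48 h (−0.78 ± 0.36, adjusted p = 0.0906) at a very low level, with 0.298, 0.228 and 0.373 CPM at 48 h, against 0.448, 0.616 and 0.489 CPM at 0 h. Atp6v0c, the main proteolipid, was at 0.56 ± 0.08 at 48 h, and the pseudogene Atp6v0c-ps2 was at 0.56 ± 0.09. These are near-identical copies between which reads can be split, Atp6v0c had 1 count in all 6 TT-seq libraries and Atp6v0c-ps2 none, so both values are uncertain.

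**Figure D3:**
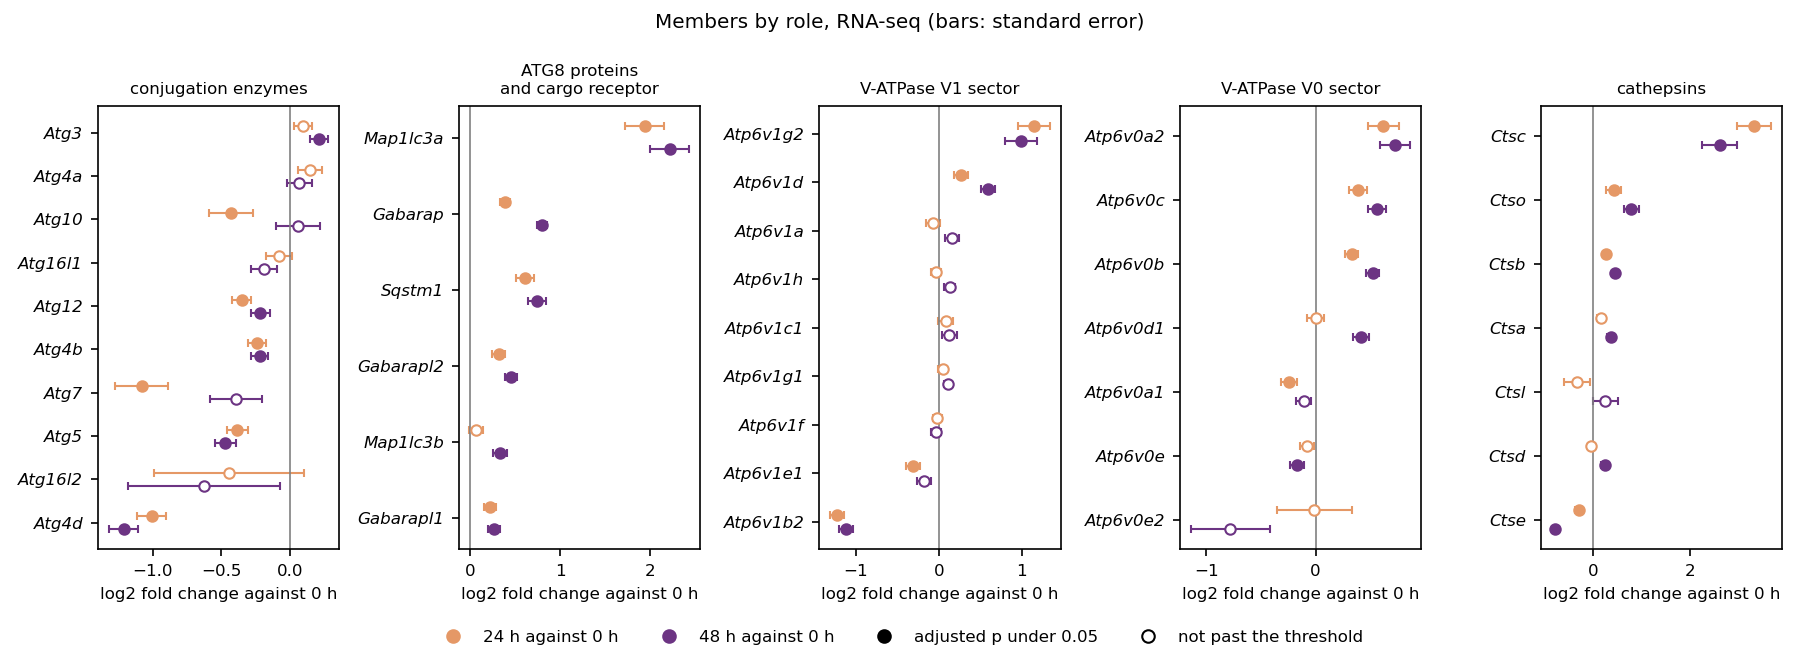
Log2 fold change against 0 h (x axis) of members by role at 24 h (orange) and 48 h (purple) of auxin; bars are standard errors, and open points are not past an adjusted p of 0.05. The ATG8 panel lies wholly to the right of 0, the conjugation panel mostly to the left, and Atp6v1b2 is lowest in the V1 panel.

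Among cathepsins 3 of 7 were higher and 1 lower at 24 h, and 5 higher and 1 lower at 48 h. The Ctso call at 24 h (0.42 ± 0.16, adjusted p = 0.043) was lost with DESeq2 (adjusted p = 0.0502), with no filter (0.15), with the replicate block (0.0543) and when any of 9 single libraries was left out. Ctsc, a cysteine protease known for activating granule proteases, had 3, 4 and 3 counts at 0 h (0.122, 0.164 and 0.122 CPM), 7, 11 and 13 at 4 h (0.280, 0.439 and 0.519 CPM), 37, 38 and 36 at 24 h (1.39, 1.43 and 1.34 CPM) and 19, 25 and 24 at 48 h (0.707, 0.948 and 0.895 CPM). The fitted log2 fold changes were 1.57 ± 0.39 at 4 h, 3.30 ± 0.35 at 24 h and 2.60 ± 0.36 at 48 h (adjusted p = 0.0276, 8.42e-06 and 5.04e-05). Ctsc passed the count filter only through the late libraries in which it was high, so it had to differ, and its calls add nothing to the counts of higher members. The 4 h call was lost with no count filter (adjusted p = 0.0876). It was also lost when any 0 h library, or replicate 2 or 3 at 4 h, was left out (adjusted p up to 0.133). TT-seq gave 0.867, 1.12 and 0.949 CPM in auxin-treated libraries, against 0.657, 0.577 and 0.529 CPM in untreated ones (0.76 ± 0.24, adjusted p = 0.0949; 0.0128 with the block).

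Ctse went the other way. Its mRNA was at 348.5, 335.9 and 303.2 CPM at 0 h, 295.6, 316.9 and 275.1 CPM at 4 h, 276.1, 249.7 and 279.4 CPM at 24 h and 205.9, 184.4 and 186 CPM at 48 h. It was lower at 24 h (−0.29 ± 0.07, adjusted p = 0.00581) and 48 h (−0.78 ± 0.07, adjusted p = 2.11e-06), with a further fall between those times (−0.48 ± 0.07, adjusted p = 0.00307). The other aspartic protease, Ctsd, was not past the threshold at 24 h (−0.03 ± 0.07) and was higher at 48 h (0.24 ± 0.07, adjusted p = 0.0101), a call lost without 0 h replicate 2 or 48 h replicate 2. Ctsb, a cysteine protease, was at 107.9, 108.2 and 113.8 CPM at 0 h, 128.2, 144.1 and 126.5 CPM at 24 h and 145, 156.6 and 150.3 CPM at 48 h, with no overlap between these times (0.45 ± 0.07 at 48 h, adjusted p = 0.000105). Ctso (0.79 ± 0.16, adjusted p = 0.000908) and Ctsa, a carboxypeptidase (0.37 ± 0.07, adjusted p = 0.000946), were also higher at 48 h, and Ctsl was at 0.25 ± 0.26 (adjusted p = 0.444). The other 11 of the 18 cathepsin symbols in the time series did not pass the count filter.

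The lysosomal membrane glycoproteins parted from each other. Lamp2, whose A form serves chaperone-mediated autophagy, was at 98.5, 93.5 and 86.6 CPM at 0 h, 104.2, 98.5 and 92.7 CPM at 4 h, 125.2, 123.6 and 111.1 CPM at 24 h and 151.3, 150.7 and 154.3 CPM at 48 h. All libraries at 24 h lay above those at 0 and 4 h, and all at 48 h above those at 24 h (0.37 ± 0.07, adjusted p = 0.000621, and 0.71 ± 0.07, adjusted p = 1.77e-06, against 0 h). Lamp1 was at 331.7, 322.1 and 347.7 CPM at 0 h, 332.8, 323.7 and 331.4 CPM at 4 h, 257.4, 288.6 and 265.7 CPM at 24 h and 292.4, 336.7 and 308.7 CPM at 48 h. It was lower at 24 h (−0.30 ± 0.06, adjusted p = 0.00161), and its 48 h libraries overlapped those at 0 h (−0.09 ± 0.06, adjusted p = 0.229).

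Of 6 initiation genes 3 were higher at 24 h and 2 at 48 h, and none was lower at either time. Ulk2, a close relative of ULK1, was at 24.3, 27.7 and 24.6 CPM at 0 h, 28.8, 27.8 and 23.7 CPM at 4 h, 55.6, 51.5 and 48.4 CPM at 24 h and 72, 69.3 and 62.1 CPM at 48 h. The 0 and 4 h libraries overlapped, and those at 24 and 48 h formed separate higher ranges (1.02 ± 0.09, adjusted p = 2.43e-06, and 1.41 ± 0.09, adjusted p = 1.09e-07). In TT-seq Ulk2 had 57.5, 75.9 and 59.4 CPM in auxin-treated libraries, against 36.6, 51.3 and 44.7 CPM in untreated ones. New RNA was higher in every treated library at 4 h (0.54 ± 0.15, adjusted p = 0.0627; 1.78e-20 with the block), when mRNA was at 0.07 ± 0.10. Ulk3 was higher in mRNA at 24 h (0.61 ± 0.11, adjusted p = 0.000503) and 48 h (0.58 ± 0.11, adjusted p = 0.000562). Ulk1, the best known kinase of the group, was at 0.21 ± 0.11 and 0.22 ± 0.11 at these times and its partner Atg13 at 0.21 ± 0.10 and 0.22 ± 0.10, with neither past the threshold. Atg101, which stabilises ATG13, was higher at 24 h only (0.22 ± 0.08, adjusted p = 0.0463), a call lost under DESeq2 and without most single libraries.

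In the group that makes the phagophore grow, 2 of 7 genes, Atg2b and Wipi2, were lower at both 24 and 48 h, and none was higher. Wipi2 was at −0.18 ± 0.06 (adjusted p = 0.0276) and −0.20 ± 0.06 (adjusted p = 0.0143), calls lost at 24 h without 0 h replicate 2 or 3 or 24 h replicate 2 and at 48 h without 48 h replicate 3. Wipi1 was at −0.09 ± 0.18 and 0.26 ± 0.18. Atg2a, the paralog of Atg2b, was at 0.17 ± 0.07 at both times (adjusted p = 0.0745 and 0.0658), with the opposite sign to Atg2b. Atg9a, the membrane scramblase, was at 0.09 ± 0.07 and 0.10 ± 0.07, and its scarce paralog Atg9b had 0.484, 0.379 and 0.820 CPM at 48 h, against 0.245, 0.575 and 0.367 CPM at 0 h (0.50 ± 0.45, adjusted p = 0.379).

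At the late times genes of the conjugation cascade were called lower more often than higher. Genes of the ATG8 proteins and the cargo receptor were called higher only. Of 10 cascade genes, which count Atg12, Atg5 and Atg16l1 beside the enzymes, 6 were lower and none higher at 24 h. At 48 h 4 were lower and 1 higher, and the medians at 24 and 48 h were −0.37 and −0.22 in log2 fold change. The 4 were Atg12, Atg5, Atg4b and Atg4d. At 48 h Atg7 and Atg10 were not past the threshold, and Atg3 was higher. Of the 6 ATG8 and cargo receptor genes 5 were higher at 24 h and 6 at 48 h, with none lower and medians of 0.36 and 0.60. Over all genes 21.5% were higher and 21.5% lower at 24 h, and 24.9% higher and 24.6% lower at 48 h.

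Beside Atg4d, the genes of the cascade lower at 24 h were Atg7, Atg10, Atg5, Atg12 and Atg4b. Atg7 was at 29.8, 31.6 and 25.1 CPM at 0 h, 22.6, 18.6 and 23 CPM at 4 h, 10.5, 16.7 and 13.7 CPM at 24 h and 15.9, 28.1 and 22 CPM at 48 h. All 24 h libraries lay below those of the earlier times (−1.08 ± 0.20, adjusted p = 0.00063), and 1 of the 48 h libraries lay within the range of 0 h (−0.39 ± 0.19, adjusted p = 0.106). Atg5, which forms the E3-like unit with ATG12 and ATG16L1, was at 22.3, 22.1 and 22.4 CPM at 0 h, 17.6, 16.1 and 17.5 CPM at 24 h and 15.9, 16.7 and 15.6 CPM at 48 h. These ranges were narrow and did not overlap with 0 h (−0.38 ± 0.08, adjusted p = 0.0012, and −0.47 ± 0.08, adjusted p = 0.000187). Atg12 was lower at 24 h (−0.35 ± 0.07, adjusted p = 0.00121) and 48 h (−0.22 ± 0.07, adjusted p = 0.0197; lost without 0 h replicate 3 or 48 h replicate 2), and so was Atg4b, the main ATG4 protease (−0.24 ± 0.06, adjusted p = 0.00783, and −0.22 ± 0.06, adjusted p = 0.0106). Atg16l1 was at −0.08 ± 0.10 and −0.19 ± 0.10, not past the threshold. Atg10, an E2-like enzyme, was lower at 24 h only (−0.43 ± 0.16, adjusted p = 0.046), a call lost when any of 9 single libraries was left out. Atg3, the E2-like enzyme that hands ATG8 proteins to the membrane lipid, was the exception on the higher side at 48 h (0.21 ± 0.07, adjusted p = 0.0174), a call lost without 0 h replicate 1 or 48 h replicate 2.

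**Figure D4:**
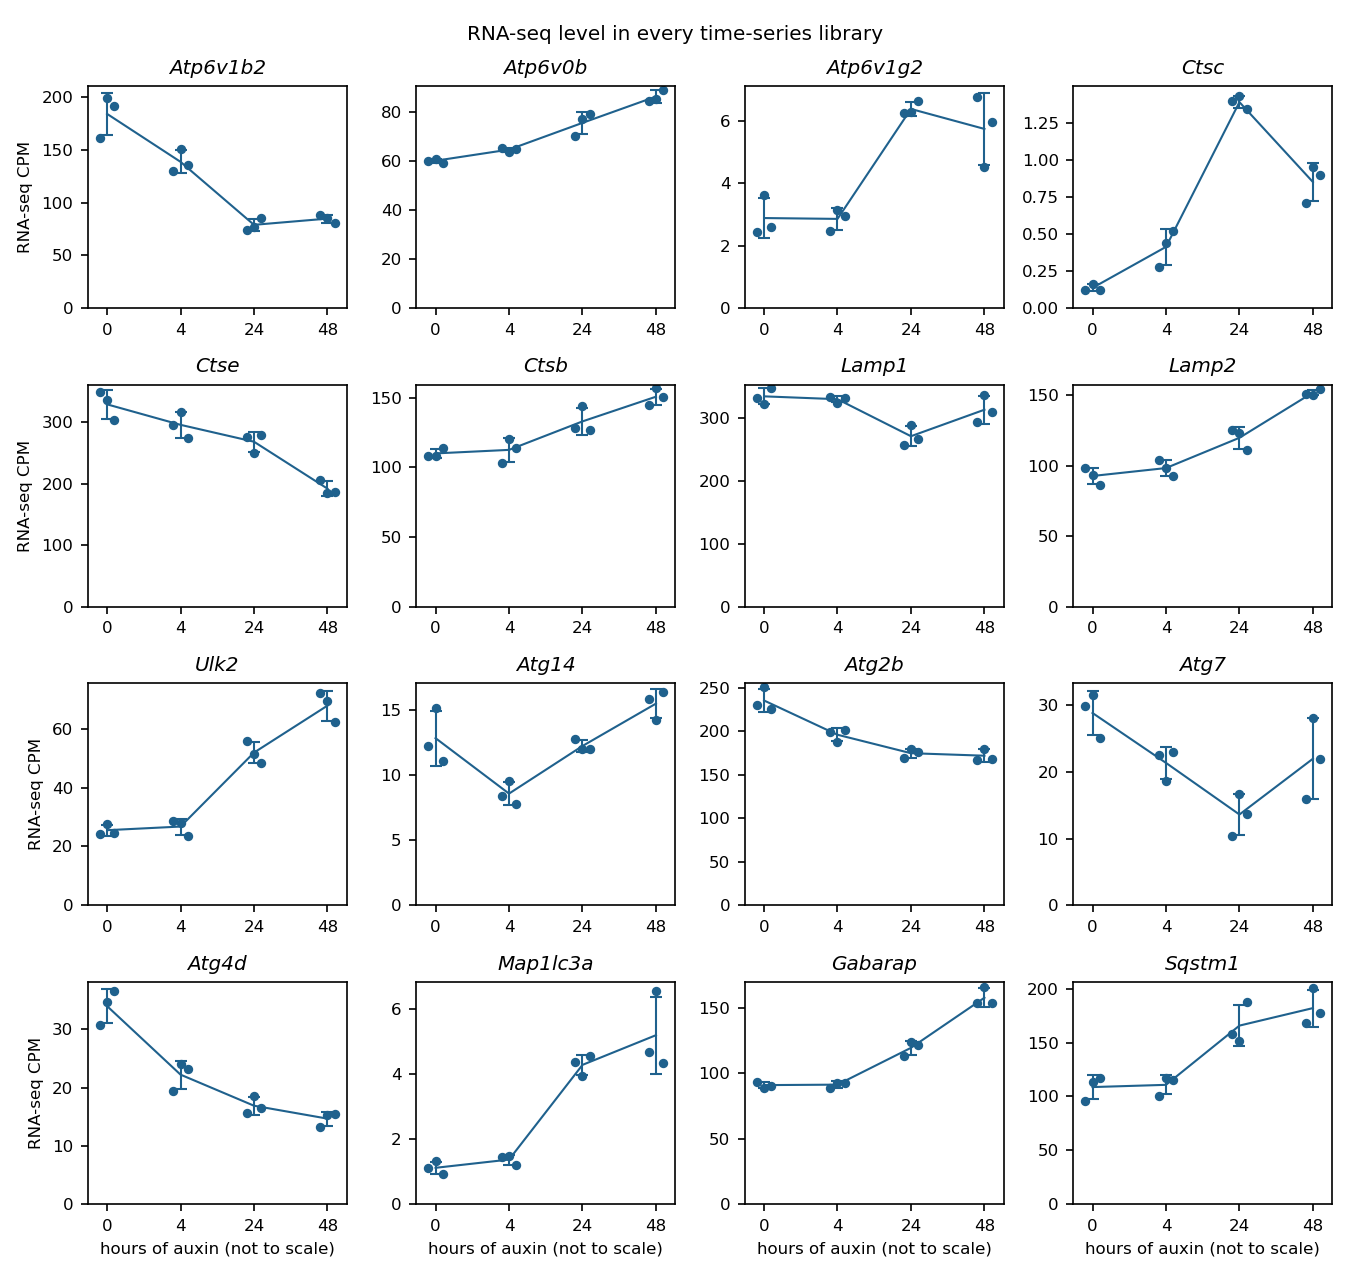
RNA-seq CPM (y axes, from 0) of 16 members at 0, 4, 24 and 48 h of auxin (x axes, evenly spaced); points are the 3 libraries of each time, lines join the means and bars are SD. Atp6v1b2 is lower from 4 h on, Atg14 dips at 4 h, Atg7 and Lamp1 are lowest at 24 h, and Ulk2, Gabarap and Lamp2 are highest at 48 h.

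Among the ATG8 genes Map1lc3a had the largest log2 fold change at 24 and 48 h. Map1lc3a (LC3A) was at 1.10, 1.31 and 0.938 CPM at 0 h, 1.44, 1.48 and 1.20 CPM at 4 h, 4.37, 3.95 and 4.55 CPM at 24 h and 4.69, 6.56 and 4.36 CPM at 48 h. Late libraries lay clear of the early ones at a low level throughout (1.94 ± 0.21, adjusted p = 1.2e-05, and 2.21 ± 0.21, adjusted p = 2.31e-06), and TT-seq counts were too few to test it. Gabarap was at 93.1, 88.8 and 90.4 CPM at 0 h, 88.2, 92.5 and 92.7 CPM at 4 h, 113, 123.4 and 121.3 CPM at 24 h and 153.2, 165.6 and 153.6 CPM at 48 h. The replicates of each time were close, and Gabarap rose between 4 and 24 h (0.39 ± 0.06, adjusted p = 0.00018) and again between 24 and 48 h (0.40 ± 0.06, adjusted p = 0.00161), to 0.79 ± 0.06 over 0 h (adjusted p = 1.59e-07). In TT-seq at 4 h its value was −0.06 ± 0.22 (adjusted p = 0.914; 0.535 with the block).

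Sqstm1 (p62), the receptor that carries ubiquitinated cargo and is itself consumed by autophagy as a protein, was at 96.1, 113 and 117.1 CPM at 0 h, 100.6, 116.7 and 115.1 CPM at 4 h, 157.6, 151.9 and 188 CPM at 24 h and 167.8, 201.1 and 177.4 CPM at 48 h. The libraries at 24 and 48 h all lay above those at 0 and 4 h (0.61 ± 0.10, adjusted p = 0.000317, and 0.74 ± 0.10, adjusted p = 4.21e-05). Gabarapl2 was higher at 24 h (0.32 ± 0.07, adjusted p = 0.00249) and 48 h (0.46 ± 0.07, adjusted p = 0.000119). Gabarapl1 was higher by 0.22 ± 0.07 and 0.27 ± 0.07 (adjusted p = 0.0179 and 0.00493). The 24 h call was lost without 0 h replicate 2 or 24 h replicate 2. Map1lc3b (LC3B), the usual marker protein of autophagosomes, was at 65.5, 70.6 and 72.5 CPM at 0 h, 73.4, 76.2 and 69.8 CPM at 24 h and 81.3, 92.4 and 90 CPM at 48 h, and passed at 48 h only (0.34 ± 0.08, adjusted p = 0.00236).

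Between 24 and 48 h few members moved further. Against 24 h, 6 members were higher and 1 lower at 48 h, 12.7% against 5.87% of all genes (3.03% higher and 2.84% lower): Gabarap, Atp6v0d1, Lamp2, Ulk2, Atp6v1d and Ctsd on the higher side and Ctse on the lower. Without 48 h replicate 2 or 24 h replicate 3 only 3 were higher. Against 4 h, 16 were higher and 8 lower at 24 h, 43.6% against 33.6% of all genes, with 5 lower without 4 h replicate 1 and 4 without 24 h replicate 1. Ctsc, which had to differ because of the count filter, is among the 16. The comparisons with 0 h share their control libraries.

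Genes of the same organelles outside the symbol rule were counted in 4 lists. Among 29 lysosomal hydrolases tested 5 were higher and 12 lower at 24 h, and 7 higher and 8 lower at 48 h (median 0.00 at 48 h, against 0.03 over all genes). Ppt1, which removes palmitate from proteins, was lower in TT-seq (−1.72 ± 0.20, adjusted p = 0.00196), at 4 h (−0.47 ± 0.08, adjusted p = 0.00334), at 24 h (−2.14 ± 0.08, adjusted p = 3.06e-09) and at 48 h (−1.94 ± 0.08, adjusted p = 3.32e-09). By smallest p, Galc, a galactolipid hydrolase, was at −1.21 ± 0.09 at 48 h and Gusb, a glucuronidase, at −0.70 ± 0.08, while Aga (0.79 ± 0.10) and Asah1, acid ceramidase (0.65 ± 0.10), were higher. Among 20 membrane and accessory genes 9 were higher and 6 lower at 24 h, and 11 higher and 5 lower at 48 h (median 0.34). Ctns, the cystine exporter (0.94 ± 0.08), Psap, the precursor of the saposins (0.80 ± 0.07), and Laptm4a (0.68 ± 0.06) had the smallest p on the higher side at 48 h, and M6pr, a mannose 6-phosphate receptor (−0.43 ± 0.05), Igf2r, another (−0.28 ± 0.07), and Cd68 (−1.25 ± 0.31), also used as a macrophage marker, were lower.

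Among 27 other autophagy genes 9 were higher and 6 lower at 24 h, and 10 higher and 5 lower at 48 h (median 0.05). Zfyve1 (1.26 ± 0.09), Tax1bp1, a cargo receptor (0.55 ± 0.05), and Calcoco1, a receptor for parts of the endoplasmic reticulum (1.13 ± 0.15), had the smallest p on the higher side at 48 h. Tmem41b (−0.50 ± 0.08), Pik3r4 (−0.46 ± 0.10), a VPS34 subunit, and Fundc1 (−0.47 ± 0.12), a mitophagy receptor, had the smallest p on the lower side. Among 21 regulators 7 were higher and 6 lower at 24 h, and 9 higher and 4 lower at 48 h (median 0.11). Prkaa1, a catalytic subunit of the energy sensor AMPK, was lower in TT-seq (−0.49 ± 0.10, adjusted p = 0.0174) and at 4, 24 and 48 h (−0.36 ± 0.07, −0.77 ± 0.07 and −0.73 ± 0.07). Among genes of the Rag and Ragulator complexes, which place mTORC1 on the lysosome, Rraga (−0.47 ± 0.07) and Lamtor5 (−0.32 ± 0.07) were lower at 48 h. In the same complexes Rragd (1.86 ± 0.34), Rragc (0.34 ± 0.06), Lamtor2 (0.36 ± 0.07) and Lamtor4 (0.27 ± 0.10), named after their values were seen, were higher. Tsc1 (0.66 ± 0.07), Flcn (0.55 ± 0.07) and Zkscan3 (0.76 ± 0.09) were higher. Tfeb, an activator of lysosomal genes named for its role and chosen after its values were seen, was also higher (0.51 ± 0.13, adjusted p = 0.00471).

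Before auxin the lines were compared in 52 members, and none passed the threshold in any of the 3 comparisons by edgeR, with 1 to 2 members at an unadjusted p under 0.05 in each. Over all 10892 genes 0, 0 and 9 passed, which is 0%, 0% and 0.0826%. In the YY1-AID subline against parental cells 6 members had both libraries above and 3 both below, against 9.75% and 11.5% of all genes. In subline 3 these were 10 and 4 against parental cells (14.1% and 13.3% of all genes), and 8 and 5 against the YY1-AID subline (14.2% and 12.7%). Same-numbered libraries correlated at 0.89 to 0.94 in their deviations. With the number as a block 177 genes were higher and 261 lower in the YY1-AID subline against parental cells, 457 and 223 in subline 3 against parental cells, and 483 and 190 in subline 3 against the YY1-AID subline. The block called 2 members, Ctso and Ctsb, both higher in subline 3 against the YY1-AID subline. It put 7, 8 and 12 members at an unadjusted p under 0.05. DESeq2 called 1 member, Ctso in subline 3 against the YY1-AID subline. Ctso, a cysteine protease, was at 4.63 and 5.39 CPM in subline 3 and at 1.98 and 2.26 CPM in the YY1-AID subline (1.24 ± 0.26, adjusted p = 0.312), and at 3.87 and 4.36 CPM in parental cells. Atp6v1b2 was at 123.3 and 139.9 CPM in subline 3, at 87.7 and 118.1 CPM in the YY1-AID subline and at 97.1 and 107.7 CPM in parental cells, with overlap between the last 2 lines. The standard error of Atp6v1b2 was 0.21 here, against 0.09 in the time series at 48 h.

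Not all symbols could be followed. In the time series 6 members had no count in any library and 16 had counts but did not pass the filter, and in TT-seq these were 7 and 15. Among the V-ATPase isoforms of specialised tissues Atp6v1g3 and Atp6v1e2 had no count in the time series, and Atp6v0a4 and Atp6v0d2 had 6 and 2 counts over its 12 libraries. The cathepsin Ctsg had 3 counts in the time series and Ctsf 5. Atg4c had 3 counts in the time series, so of the ATG4 proteases Atg4a, Atg4b and Atg4d were the ones tested there. Atg4a was at 0.07 ± 0.09 at 48 h (adjusted p = 0.563). In the untreated lines Atg4c had 52 counts and was tested.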

How the data were processed

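RNA-seq libraries were made with a stranded mRNA kit and TT-seq libraries with a stranded total RNA kit, per the labels' protocols. The RNA-seq tables hold estimated counts per gene, deposited as whole numbers; the submitters' processing notes name Salmon 0.13.1, DESeq2 and mm9, and which transcripts were used is not stated there. The TT-seq tables hold read counts per gene as deposited; the submitters' processing notes name Trim Galore 0.6.10, STAR, mm9 and dm6, the summary lines of the deposited files are those of HTSeq, and the strand setting is not stated. Summary lines were left out of library sizes and tests (17.2% to 22.2% of reads had no feature and 0.391% to 0.529% were ambiguous), and Rn45s took 22.2% to 38.8% of TT-seq counts.

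Each table was fitted separately with edgeR 4.0.16 in R 4.3.3: TMM sizes, a filter on low counts by group (filterByExpr), the quasi-likelihood F-test over all groups of the table, and Benjamini-Hochberg adjustment over all genes tested, with a threshold of 0.05. Every adjusted p is from this test unless another is named, and ± is a standard error. DESeq2 1.42.0, other sizes, no filter, a replicate block and leaving out each library were alternatives. Scripts were tested on simulated data. In TT-seq, deviations of same-numbered libraries correlated at 0.7 to 0.91 over 3 pairs, and those of the 0 h and 4 h RNA-seq libraries at 0.22 to 0.38 over 3 pairs, so the numbers pair libraries in these comparisons; the pairing comes from the data and not from the labels.

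The members and lists were chosen with earlier results of these data known. Any member could be named; full statistics went to members past the threshold at 4 h and to the smallest p in each direction, values per library to members that passed in both 4 h assays, to the largest change of each role at 48 h and to Sqstm1, Lamp1 and Lamp2, with other members given per library after their values were seen, and up to 3 genes a direction were named from each list, except that 1 result is not reported here. ChIP-seq and Micro-C files were not used here. Figures were drawn with matplotlib 3.10.9.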

Additional observations from a re-analysis of the deposited data

Results flagged for a closer look

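Members whose change against 0 h differed between times are listed because the difference itself passed edgeR's test at an adjusted p under 0.05; values are log2 differences between the times, later over earlier. At 24 h against 4 h, 16 members were higher: Ulk2 (0.95), Map1lc3a (1.64), Gabarap (0.39), Atp6v1g2 (1.16), Ctsc (1.74), Sqstm1 (0.58), Gabarapl2 (0.3), Lamp2 (0.28), Ctso (0.65), Atg14 (0.51), Atp6v0b (0.22), Atg13 (0.38), Ctsb (0.24), Ulk3 (0.33), Ulk4 (0.9) and Atg9a (0.21). 8 were lower at 24 h: Atp6v1b2 (−0.81), Atg5 (−0.37), Lamp1 (−0.28), Atp6v1e1 (−0.36), Atg4d (−0.4), Atg12 (−0.25), Atg7 (−0.65) and Atg2b (−0.17). Ulk4 was lost with DESeq2 (adjusted p = 0.0613) and Atg9a with median-of-ratios sizes (adjusted p = 0.0506). With no filter on low counts Ulk4, Atg9a, Atg2b, Atg12 and Atp6v0b were lost (adjusted p up to 0.116). Ulk4, Atg9a, Atg2b, Atg12, Atg7, Atg4d, Ulk3 and Ctsb were also lost without certain single libraries. At 48 h against 24 h, 6 were higher: Gabarap (0.4), Atp6v0d1 (0.41), Lamp2 (0.34), Ulk2 (0.39), Atp6v1d (0.33) and Ctsd (0.27). Ctse was lower at 48 h (−0.48). The Ulk2, Atp6v1d and Ctsd calls were lost without 48 h replicate 2 or without 24 h replicate 3. Ctsc passed the count filter only through late libraries in which it was high, so its difference adds nothing to the count of higher members. The search for single libraries far from their group was not run, since no group has more than 3 libraries.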

How the results depend on the processing

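In TT-seq 1 member was higher and 5 were lower. The higher count was 2 with DESeq2, 2 with no filter on low counts, 14 with the replicate block, 0 with spike-in library sizes and 5 with spike-in sizes and the block, and the lower count was 15 with the block, 0 with spike-in sizes and 11 with both. In RNA-seq at 4 h the 1 higher member became 0 with DESeq2 and 2 with the replicate block. At 48 h against 24 h the 6 higher members became 11 with DESeq2. Subline 3 against the YY1-AID subline had 0 higher members, 1 with DESeq2 and 2 with the replicate block (Ctso and Ctsb). No other count of members moved by over 1.5 times under the block. Over all times of the RNA-seq time series same-numbered libraries correlated at −0.22 to 0.38 in their deviations. The range was −0.22 to 0.35 between 0 and 24 h and −0.14 to 0.19 between 0 and 48 h, so no pairing is shown in these 2 comparisons. Between 4 and 24 h it was −0.04 to 0.38. Between 24 and 48 h it was 0.08 to 0.31, so some pairing cannot be set aside there. The untreated lines have only 2 numbers.

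Leaving out each library in turn gave, in TT-seq, 0 to 2 higher and 1 to 5 lower members; at 4 h, 0 to 2 higher and 3 to 6 lower; at 24 h, 15 to 18 higher and 11 to 13 lower; at 48 h, 20 to 24 higher and 8 to 11 lower; at 24 h against 4 h, 13 to 17 higher and 4 to 9 lower; at 48 h against 24 h, 3 to 7 higher and 1 lower; and 0 in all comparisons of untreated lines. TT-seq had 2 lower members without auxin replicate 1 or untreated replicate 1 or 2, and 1 without replicate 3 of either group. RNA-seq at 4 h had no higher member without any one 0 h library or 4 h replicate 2 or 3, and 3 lower without 4 h replicate 3. Where an alternative moved a call the cause was not tested. Over members and settings, 6387 values kept their side of the threshold, 150 lost the call and 88 gained one. No value called in either fit changed direction. For values called in neither fit the direction was not compared. Low-count members such as Ctsc, Ulk4 and Map1lc3a are limited by depth.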
